A study of Arabidopsis thaliana with 42 samples.

Results

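The loci described here are the 720 transposon loci of Arabidopsis thaliana that gave the most reads in ddm1 seedlings. They were chosen by their measured ddm1 level, as loci with a transposon identifier (AT1TE to AT5TE followed by digits) whose deposited level in ddm1, averaged over 3 libraries, was at least 10 CPM, counts scaled to a common library size, leaving out AT4TE15820, AT4TE15825 and AT4TE15835. They are 37.2% of the 1936 transposon loci in the count table, which lists 25069 loci in all. The study compared 4 genotypes by polyA RNA-seq, with 3 libraries each: ddm1, and the double mutants labelled ddm1nrpd1, ddm1nrpe1 and ddm1cmt2. All 4 genotypes carry a ddm1 mutation, the allele numbers of these RNA samples are not given, and no wild-type RNA library was analysed here, so "active" refers to the level in ddm1 and not to a rise over wild type. The plants were seedlings 2 weeks old, kept for 7 days in the cold and then grown at 22 °C with 16 h of light and 8 h of dark. Since the ddm1 libraries chose the loci, levels beside ddm1 are given below as a description without a test or a count of calls, and tests of the loci are kept to the 3 comparisons between double mutants.

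Transposons are mobile or once mobile DNA elements that plants keep silent mainly through DNA methylation and compact chromatin. DDM1 is a chromatin remodeller that lets methyltransferases reach DNA wrapped in nucleosomes, and plants without it lose methylation over heterochromatin and transcribe many transposons. NRPD1 belongs to RNA polymerase IV and NRPE1 to RNA polymerase V, in each case as its largest subunit, and both enzymes act in RNA-directed DNA methylation. Polymerase IV makes the precursors of small interfering RNAs, and polymerase V makes the scaffold transcripts to which those small RNAs are guided. The chromomethylase CMT2 adds non-CG methylation to long heterochromatic transposons, largely apart from the RNA-directed route.

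Libraries held between 7842329 and 24788784 counts, and the ddm1 libraries were the shallowest, at up to 10160025. NRPD1 and NRPE1 transcripts were highest in the genotypes named after their mutation, and CMT2 was not lowest in its own. NRPD1 stood at 15.0, 13.8 and 13.7 CPM in the libraries labelled ddm1nrpd1 and between 3.73 and 6.63 CPM in the other 9. NRPE1 stood at 55.7, 55.1 and 65.2 CPM in the libraries labelled ddm1nrpe1 and between 5.93 and 14.1 CPM elsewhere. CMT2 was at 25.9, 26.5 and 28.0 CPM in the libraries labelled ddm1cmt2, below the 29.9 to 35.2 CPM of ddm1 and above the 16.2 to 23.2 CPM of the other double mutants. A count over a whole gene does not show whether a mutated transcript makes protein, so these levels do not check the loss of function that the labels give. The summed level of 4 leaf markers lay between 22201 and 36496 CPM and that of 4 root markers between 29.4 and 99.4 CPM. The leaf markers summed to 35214.5 to 36496 CPM in ddm1cmt2, above every other library, and to 29592.5 to 32614 CPM in ddm1. They summed to 27570 to 29404 CPM in ddm1nrpd1 and 22201 to 28870 CPM in ddm1nrpe1. The root markers summed to 29.4 to 43.5 CPM in ddm1nrpd1 and ddm1nrpe1 and to 76.1 to 99.4 CPM in ddm1 and ddm1cmt2, and plastid loci held 0.124% to 0.309% of counts in the first pair and 0.779% to 1.97% in the second. The part of tissue makeup in the results below was not tested, and fewer transcribing cells cannot be told apart from less RNA per cell.

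As a group the 720 loci took up between 4.61% (ddm1cmt2) and 5.87% (ddm1nrpe1) of counts by genotype mean. They held 5.48%, 5.10% and 5.99% of counts in the 3 ddm1 libraries, 5.39%, 4.54% and 4.75% in those of ddm1nrpd1, 5.81%, 5.78% and 6.03% in those of ddm1nrpe1, and 4.25%, 4.84% and 4.75% in ddm1cmt2. By these raw shares the 3 ddm1cmt2 libraries lay below every ddm1 and ddm1nrpe1 library, and the 3 ddm1nrpe1 libraries lay above every ddm1nrpd1 library, while ddm1nrpd1 overlapped ddm1 and ddm1cmt2. The shares lack the TMM (trimmed mean of M values) scaling used for the levels below. TMM factors were 0.907 to 0.9385 in ddm1cmt2 and 0.987 to 1.058 in the other genotypes. The order of genotypes could differ after scaling, and scaled shares were not computed. In ddm1 the 720 loci held 91.7% of all counts on transposon loci. The load was spread widely in ddm1, where the 10 loci with the highest mean ddm1 level held 11.6% to 12.6% of the group's counts. The same 10 loci held between 9.57% and 13% over all 12 libraries, and the highest loci of each double mutant were not picked separately.

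Levels in ddm1 ran from the threshold to 1256 CPM, with a median of 32.9 and quartiles of 17.2 and 84.8, against a median of 12.1 CPM over all loci. CPM is not divided by length and the files give no lengths, so levels are compared between genotypes and not between loci. All 720 loci passed the filter on low counts. The lowest count of a locus was 13 in a ddm1 library and 3 in any library. Just inside the threshold were AT3TE68090, AT3TE62450 and AT1TE45175, with deposited means of 10.02, 10.04 and 10.07 CPM, and just outside it were AT1TE96100, AT4TE16570 and AT5TE47130, with 9.99, 9.90 and 9.89 CPM. The median coefficient of variation between replicates was 12.1% for ddm1, 11.3% for ddm1nrpd1, 9.0% for ddm1nrpe1 and 13.9% for ddm1cmt2.

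**Figure D1:**
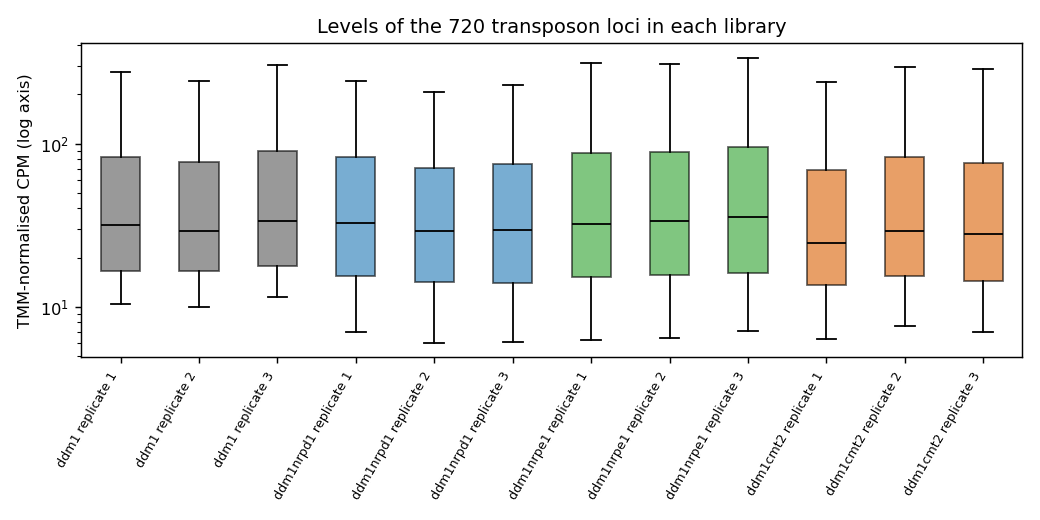
Levels of the 720 transposon loci in each of the 12 libraries, in TMM-normalised CPM on a log axis. The line is the median, the box spans the quartiles and the whiskers reach the 5th and 95th percentiles; medians lie between 24.6 and 35.6 CPM, lowest in ddm1cmt2 replicate 1 and highest in ddm1nrpe1 replicate 3.

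Differences between the 4 genotypes were mostly moderate in size. The 4 group means lay within 2-fold of each other for 402 loci (55.8%), were over 4-fold apart for 50 and over 10-fold apart for 6. The highest of the 4 means was in ddm1 for 264 loci, in ddm1nrpe1 for 205, in ddm1nrpd1 for 138 and in ddm1cmt2 for 113, and the loci were chosen for a high ddm1 level. The lowest mean was in ddm1nrpd1 for 261 loci and in ddm1cmt2 for 220.

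AT3TE60280 and AT3TE53995 are examples of highly active loci that differed little. AT3TE60280 stood at 787, 876 and 1051 CPM in ddm1 and 1084, 811 and 751 in ddm1cmt2, and at 1238, 832 and 928 in ddm1nrpd1 and 923, 739 and 769 in ddm1nrpe1. Its 4 groups overlapped, and none of the 3 differences between double mutants passed the test (adjusted p of 0.18 to 0.56, edgeR quasi-likelihood test). AT3TE53995 stood at 415, 438 and 585 CPM in ddm1 and between 466 and 607 CPM in the 9 double-mutant libraries. Its differences between double mutants were at most 0.05 ± 0.14 on the log2 scale, with adjusted p of 0.79 to 0.92 in edgeR's test.

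The first comparison asks whether losing polymerase V in a ddm1 background leaves these loci at the same level as losing polymerase IV. More of them were higher in the libraries labelled ddm1nrpe1 than in those labelled ddm1nrpd1. In edgeR's quasi-likelihood test at an adjusted p under 0.05, 257 of 720 (35.7%) were higher in ddm1nrpe1, against 19.7% of all 24839 tested loci, and 113 (15.7%) were lower, against 16.4%. With a change of at least 2-fold as well, 85 were higher and 26 lower, against 5.37% and 4.26% of all loci. The median difference was 0.16 on the log2 scale over the 720 loci and 0.03 over all tested loci.

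The most active loci were on the higher side in ddm1nrpe1 most often. Of the 157 loci at 100 CPM or more in ddm1, 70 (44.6%) were higher in ddm1nrpe1 and 5 (3.18%) lower, with a median difference of 0.31. Of the 233 loci at 10 to under 20 CPM, 68 (29.2%) were higher and 53 (22.7%) lower, with a median of 0.06. Beside them, 19.7% of all tested loci were higher and 16.4% lower. Loci without a transposon identifier at 10 CPM or more in ddm1 had 20.6% higher and 17.9% lower. These shares were not split by level. Deeper counts make smaller differences callable, so the counts depend on level; the medians do not need a call. The classes between lay between the 157 and the 233 loci in the percent higher and in the median. They were at 34.4% and 0.13 for 20 to under 50 CPM and at 39.0% and 0.18 for 50 to under 100 CPM. Below the threshold, transposon loci at 1 to under 10 CPM had 24.6% higher, 16.1% lower and a median of 0.07. More of them were thus higher than lower too, so the lean was not confined to strongly active loci. Those under 1 CPM had 32.0% higher, 11.8% lower and a median of 0.29. Loci this low in ddm1 can pass the count filter mainly through their levels in the double mutants, so nothing is read from that class.

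AT1TE51735 was the highest of the 720 in ddm1, at 1212, 1062 and 1379 CPM. It stood at 581, 463 and 533 CPM in ddm1nrpd1, 1031, 1199 and 1375 in ddm1nrpe1, and 849, 1307 and 1077 in ddm1cmt2. The ddm1nrpd1 libraries lay apart below all others, and the other 3 genotypes overlapped. The level was 2.29-fold higher in ddm1nrpe1 than in ddm1nrpd1 (log2 1.19 ± 0.16, adjusted p = 3.9e-05 in edgeR's test).

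AT3TE60460 and AT4TE14540, also among the 8 highest in ddm1, were lower still in ddm1nrpd1. AT3TE60460 stood at 594, 458 and 645 CPM in ddm1 and 275, 435 and 425 in ddm1cmt2, and at 147, 139 and 168 in ddm1nrpd1 and 442, 545 and 708 in ddm1nrpe1. AT4TE14540 stood at 539, 374 and 542 CPM in ddm1 and 291, 440 and 504 in ddm1cmt2, and at 128, 109 and 124 in ddm1nrpd1 and 345, 404 and 508 in ddm1nrpe1. At both loci the 3 ddm1nrpd1 libraries lay below the other 9. Between ddm1nrpe1 and ddm1nrpd1 the first differed 3.73-fold (adjusted p = 1.3e-05) and the second 3.49-fold (adjusted p = 2.7e-05), both in edgeR's test. AT4TE17470 (log2 1.13 ± 0.14) was likewise higher in ddm1nrpe1, while AT1TE44450 (0.38 ± 0.16, adjusted p = 0.083) and AT1TE44630 (0.29, adjusted p = 0.14) did not pass edgeR's test.

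The largest differences in this direction were at AT1TE51910 (log2 2.20), AT4TE19920 (2.18), AT1TE46780 (2.12), AT1TE46765 (1.95) and AT3TE50595 (1.90). AT3TE50595 stood at 58.4, 56.2 and 63.6 CPM in ddm1nrpd1 and at 178, 216 and 271 in ddm1nrpe1, beside 266, 225 and 299 in ddm1 and 200, 306 and 266 in ddm1cmt2. Its ddm1nrpd1 libraries lay far below the other 9, which ranged from 178 to 306 CPM. AT1TE51910 had another order: 36.4, 41.6 and 35.9 CPM in ddm1nrpe1 lay above all 9 other libraries, the highest of which was at 24.6 CPM.

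Fewer loci were lower in ddm1nrpe1, but some by more. The largest such differences were at AT3TE52420 (log2 -4.26), AT3TE62595 (-2.74), AT2TE42810 (-2.72), AT1TE41345 (-1.94) and AT3TE21700 (-1.91). AT2TE42810 stood at 138, 137 and 150 CPM in ddm1nrpd1 and 19.1, 22.2 and 23.0 in ddm1nrpe1, beside 38.4, 43.2 and 46.5 in ddm1 and 87.3, 66.3 and 69.6 in ddm1cmt2. The 4 genotypes did not overlap at this locus, with ddm1nrpd1 at the top and ddm1nrpe1 at the bottom, a 6.61-fold difference (adjusted p = 8e-10, edgeR's test). AT1TE41345 was at 18.9, 11 and 10.6 CPM in ddm1nrpe1 and between 33.1 and 63.6 CPM in the other 9 libraries.

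Loci that stood apart in ddm1nrpd1 were mostly low there. At 147 loci (20.4%) the 3 ddm1nrpd1 libraries lay below the 6 of the other double mutants, against 11.6% of all tested loci, and at 80 (11.1%) they lay above, against 9.92%. For ddm1nrpe1 the order was the other way, with 141 loci (19.6%) above, against 13.4%, and 54 (7.50%) below, against 11% of all loci. For ddm1cmt2, 102 loci (14.2%) lay above and 176 (24.4%) below, against 20% and 19.5% of all loci.

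The second comparison sets the libraries labelled ddm1cmt2, for the chromomethylase mutant, against those labelled ddm1nrpd1. Over the 720 loci as a whole, calls in both directions were about equal in number, while single chromosomes leaned one way or the other, as given below. In edgeR's test 237 (32.9%) were higher in ddm1cmt2 and 219 (30.4%) lower, against 26% and 24.5% of all tested loci, and the median difference was 0.02 on the log2 scale for both sets. Of the 157 loci at 100 CPM or more in ddm1, 63 (40.1%) were higher and 28 (17.8%) lower. The lower classes did not share this lean. There were 71 (30.5%) higher and 80 (34.3%) lower of the 233 loci at 10 to under 20 CPM. Of the 212 at 20 to under 50 CPM, 67 (31.6%) were higher and 78 (36.8%) lower. Of the 118 at 50 to under 100 CPM, 36 (30.5%) were higher and 33 (28.0%) lower. Loci without a transposon identifier at 10 CPM or more, not split by level, had 31.1% higher and 23.6% lower. With a change of at least 2-fold, 85 of the 720 were higher and 84 lower, against 8.04% and 9.84% of all loci. Against the libraries labelled ddm1nrpe1, 160 loci (22.2%) were higher in ddm1cmt2 and 275 (38.2%) lower, against 26.9% and 28.2% of all loci, with a median of -0.10 beside -0.00 over all loci. That median was -0.04 without ddm1cmt2 replicate 1 or without ddm1nrpe1 replicate 3, and -0.16 without ddm1cmt2 replicate 2. With at least 2-fold, 38 were higher and 100 lower, against 8.84% and 11% of all loci.

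**Figure D2:**
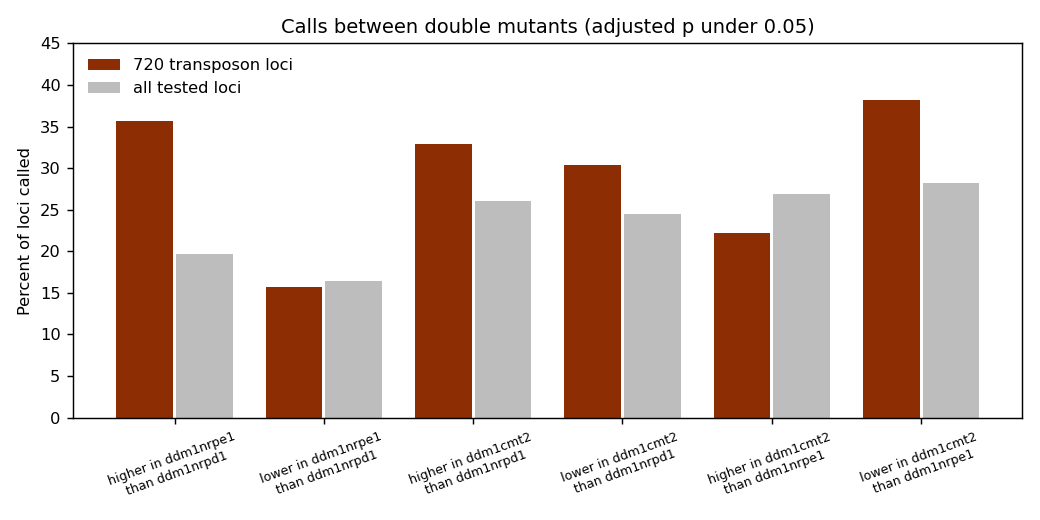
Percent of the 720 transposon loci and of all 24839 tested loci called higher or lower in each comparison between double mutants (edgeR quasi-likelihood test, adjusted p under 0.05). The widest gap is for loci higher in ddm1nrpe1 than in ddm1nrpd1, at 35.7% against 19.7%.

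Several loci were low in both ddm1 and ddm1cmt2 and high in ddm1nrpd1 and ddm1nrpe1. AT1TE45175, just inside the threshold, stood at 7.47, 9.14 and 12.7 CPM in ddm1 and 4.94, 5.48 and 7.21 in ddm1cmt2, but at 50.8, 48.0 and 51.0 in ddm1nrpd1 and 111, 98.7 and 104 in ddm1nrpe1. The genotypes did not overlap, and the level in ddm1cmt2 was 17.9-fold lower than in ddm1nrpe1 (log2 -4.16 ± 0.16, adjusted p = 1.3e-11) and 8.50-fold lower than in ddm1nrpd1 (-3.09 ± 0.16, adjusted p = 4.4e-10), both in edgeR's test. AT1TE51040 showed the same order at higher levels, with 40.3, 44.6 and 45.8 CPM in ddm1, 23.6, 19.7 and 27.2 in ddm1cmt2, 221, 215 and 231 in ddm1nrpd1, and 386, 333 and 328 in ddm1nrpe1. Its level in ddm1cmt2 was 14.9-fold lower than in ddm1nrpe1 (log2 -3.90 ± 0.13, adjusted p = 1.9e-12, edgeR's test), again with no overlap.

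AT1TE49330, AT1TE45710 and AT2TE16865 followed the same order of genotypes, with ddm1cmt2 below ddm1nrpe1 by log2 values of -3.33, -3.06 and -3.10, and with the lowest ddm1 library at or above the lowest of ddm1cmt2. AT2TE16865 stood at 17.8, 15.3 and 21.5 CPM in ddm1 and 13.2, 14.5 and 18.4 in ddm1cmt2, which overlapped, against 78.6, 66.1 and 73.7 in ddm1nrpd1 and 137, 124 and 133 in ddm1nrpe1. AT1TE45390 differed from them in ddm1, where it stood at 52.9, 44.1 and 55.7 CPM. It was at 29.2, 40.8 and 45.2 CPM in ddm1nrpd1, 96.0, 98.0 and 103 in ddm1nrpe1, and 7.17, 8.46 and 9.95 in ddm1cmt2, so ddm1cmt2 alone lay far below the rest.

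The opposite pattern, highest in ddm1cmt2, was widest at AT2TE20205. This locus stood at 335, 414 and 398 CPM in ddm1cmt2, 141, 193 and 118 in ddm1, 61.5, 53.0 and 75.4 in ddm1nrpe1, and 21.9, 16.5 and 17.3 in ddm1nrpd1. No pair of genotypes overlapped. The level in ddm1cmt2 was 20.6-fold higher than in ddm1nrpd1 (log2 4.37 ± 0.20, adjusted p = 8.4e-10) and 6.04-fold higher than in ddm1nrpe1 (2.59 ± 0.18, adjusted p = 6.4e-08), both in edgeR's test. AT1TE86360 had the same order of the double mutants, at 36.3, 43.7 and 35.9 CPM in ddm1cmt2, 15.8, 17.9 and 13.4 in ddm1nrpe1 and 7.81, 4.19 and 5.25 in ddm1nrpd1.

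The neighbours AT1TE43040 and AT1TE43050 were also highest in ddm1cmt2 but lowest in ddm1nrpe1. AT1TE43040 stood at 85.0, 98.3 and 50.8 CPM in ddm1cmt2, 30, 25.4 and 26.1 in ddm1nrpd1, 7.99, 10.4 and 11.5 in ddm1nrpe1, and 30.5, 26.8 and 38.4 in ddm1. The double mutants did not overlap, and ddm1cmt2 was 7.83-fold above ddm1nrpe1 (adjusted p = 7e-07, edgeR's test). AT5TE37800 and AT5TE37825 were likewise higher in ddm1cmt2 than in ddm1nrpe1, by 2.11 ± 0.35 and 2.06 ± 0.16 on the log2 scale.

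AT3TE52420 was highest in ddm1 among these genotypes. It stood at 28.8, 19.8 and 35.1 CPM in ddm1 and 0.303, 1.28 and 0.548 in ddm1cmt2, and at 7.40, 5.68 and 4.54 in ddm1nrpd1 and 0.177, 0.165 and 0.539 in ddm1nrpe1. Every ddm1 library lay above every double-mutant library, and ddm1nrpd1 lay above the other double mutants, which overlapped. The levels under 1 CPM rest on few reads. AT3TE62595 was highest in ddm1nrpd1, at 43.4, 34.2 and 35.3 CPM, against 10.8, 16.8 and 12.7 in ddm1, 9.58, 5.07 and 2.37 in ddm1nrpe1 and 2.22, 3.71 and 1.92 in ddm1cmt2.

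**Figure D3:**
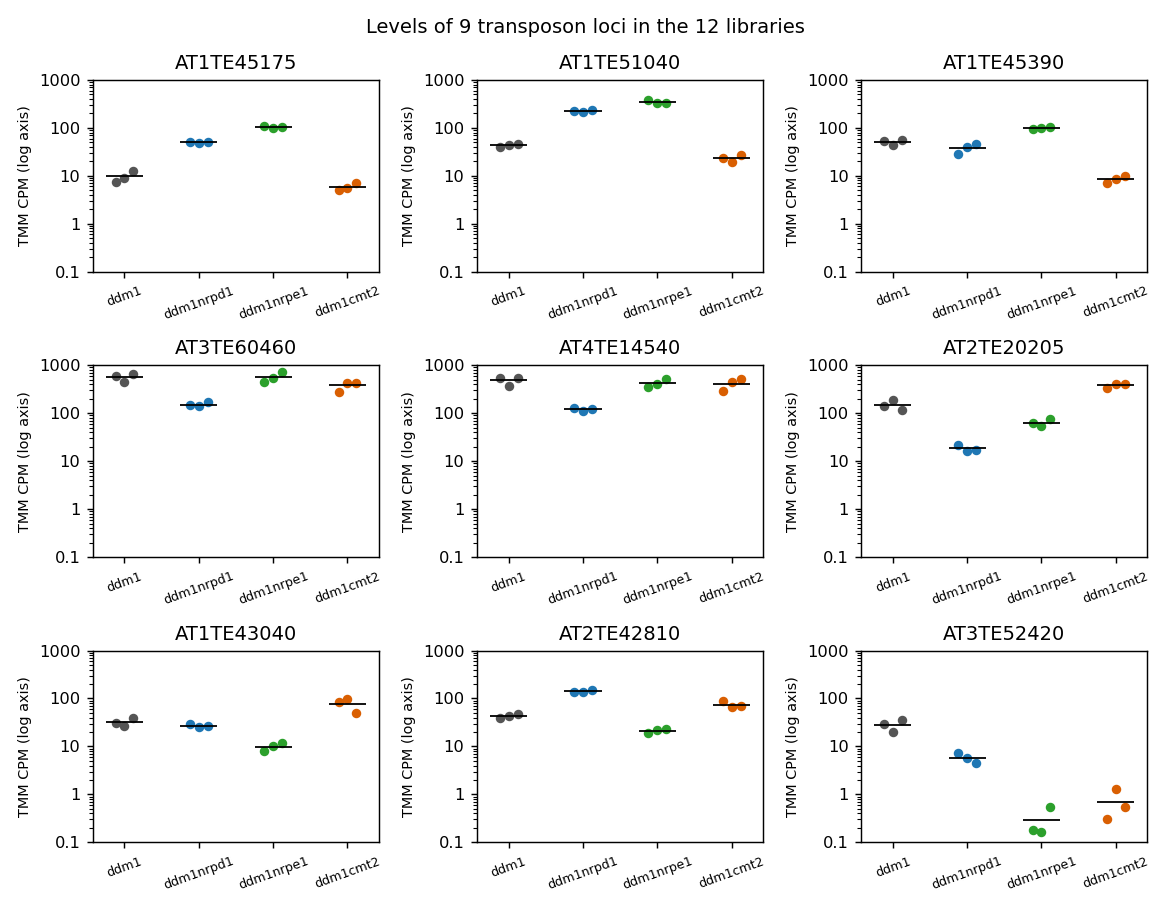
Levels of 9 loci in the 12 libraries, in TMM-normalised CPM on a log axis; points are libraries and bars are group means. AT1TE45175 and AT1TE51040 are low in ddm1 and ddm1cmt2, AT3TE60460 and AT4TE14540 are low in ddm1nrpd1, and AT3TE52420 exceeds 10 CPM in ddm1 alone.

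Beside ddm1, which chose the loci, the median locus stood lower in each double mutant. The median log2 difference from ddm1 was -0.21 in ddm1nrpd1, -0.11 in ddm1nrpe1 and -0.20 in ddm1cmt2. Without ddm1 replicate 3 it was -0.13 in ddm1nrpd1 and -0.06 in ddm1nrpe1, and without ddm1cmt2 replicate 1 it was -0.13 in ddm1cmt2. Loci picked for a high level in the ddm1 libraries are bound to sit high there, so nothing is read from these medians, and all of them share the ddm1 libraries.

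Some loci were much higher in a double mutant than in the ddm1 libraries that chose them. AT5TE20395 stood at 23.7, 1.61 and 19.6 CPM in ddm1, where replicate 2 was far below the others, and at 140, 159 and 115 CPM in ddm1nrpd1, 88.8, 68.1 and 102 in ddm1nrpe1 and 122, 148 and 51.6 in ddm1cmt2. All 9 double-mutant libraries lay above the 3 of ddm1. AT1TE44455 stood at 149, 144 and 161 CPM in ddm1 and between 345 and 553 CPM in the 9 double-mutant libraries, and its differences between double mutants did not pass edgeR's test (adjusted p of 0.059 to 0.46). AT1TE49260 was at 19.1, 23.6 and 21.8 CPM in ddm1 and 180, 167 and 155 in ddm1nrpe1, with ddm1cmt2 at 19, 20 and 22.3. AT1TE52610 was highest in ddm1cmt2, at 63.0, 61.1 and 73.9 CPM against 20.8, 29.1 and 21.0 in ddm1.

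Other loci were several-fold lower in all double mutants than in ddm1. AT4TE09580 stood at 65.9, 50.4 and 47.4 CPM in ddm1 and 12.8, 10.9 and 15.9 in ddm1cmt2, and at 7.87, 5.03 and 5.51 in ddm1nrpd1 and 5.03, 6.23 and 8.46 in ddm1nrpe1. AT3TE16035 stood at 73.8, 113 and 57.5 CPM in ddm1 and at 7.17 to 11.3 CPM in ddm1nrpd1 and ddm1nrpe1, with ddm1cmt2 at 19.2, 29.6 and 28.9. At both loci ddm1 lay above all double mutants, ddm1nrpd1 and ddm1nrpe1 overlapped, and ddm1cmt2 lay between. AT1TE46635 was at 97.6, 80.9 and 83.9 CPM in ddm1 and at 10.6, 8.35 and 11.6 in ddm1nrpd1. AT2TE28025 was lowest in ddm1cmt2, at 5.85, 11.2 and 8.31 CPM against 49.9, 43.8 and 44.0 in ddm1.

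The loci lie on all 5 chromosomes, as their identifiers give them, with 140, 153, 169, 128 and 130 on chromosomes 1 to 5. The chromosomes were set apart after the values had been seen, so the following counts are a description. On chromosome 4 the loci were mostly higher in ddm1nrpe1 than in ddm1nrpd1: 83 of 128 were called higher and 2 lower, beside 24.2% and 14.7% of all tested loci of that chromosome. The median difference was 0.51 on the log2 scale for these loci and 0.09 for all loci of chromosome 4. On chromosome 1 there were 50 higher and 23 lower, beside 20.2% and 15.6% of its tested loci, with a median of 0.13. On chromosome 2 there were 43 and 26, beside 17.9% in each direction, with a median of 0.06, and on chromosome 5 there were 45 and 15, beside 19.1% and 16.6%, with a median of 0.14. On chromosome 3 only the calls leaned the other way, with 36 (21.3%) higher and 47 (27.8%) lower, beside 18.3% and 17.8%. Its median of -0.01 showed almost no shift.

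The chromosome 4 loci stood apart in ddm1nrpd1, where they were low. Relative to each locus's mean over the 9 double-mutant libraries, the median locus of chromosome 4 stood at -0.19, -0.34 and -0.33 in ddm1nrpd1, 0.17, 0.22 and 0.31 in ddm1nrpe1, -0.07, 0.20 and 0.10 in ddm1cmt2, and 0.31, 0.22 and 0.44 in ddm1, on the log2 scale. All 3 ddm1nrpd1 libraries lay below the other 9, and the ddm1nrpe1 libraries overlapped those of ddm1cmt2 and ddm1. Against ddm1nrpd1, 70 of these loci were called higher in ddm1cmt2 and 18 lower, beside 27.8% and 23.8% of all loci of the chromosome, with a median of 0.43. The other chromosomes differed in this comparison. There were 57 higher and 26 lower on chromosome 5, beside 27% and 23%, and 43 and 47 on chromosome 1, beside 26.6% and 23.8%. More were lower on chromosome 2, with 31 higher and 59 lower beside 23.8% and 26.1%, and on chromosome 3, with 36 and 69 beside 23.3% and 26.7%. Between ddm1cmt2 and ddm1nrpe1, 25 of the chromosome 4 loci were called higher and 50 lower, beside 25.5% and 30.3%, with a median of -0.19 that was -0.12 without ddm1nrpe1 replicate 3. The 199 other tested transposon loci of chromosome 4 had 84 higher and 16 lower in ddm1nrpe1 than in ddm1nrpd1, with a median of 0.41, while the 3532 loci with a gene identifier had 765 higher and 549 lower, with a median of 0.06. Some of the 199 may have passed the count filter mainly through their levels in the double mutants.

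The difference on chromosome 4 was not held by a few neighbours. When the loci were ordered by identifier and divided into 6 equal stretches, the median difference between ddm1nrpe1 and ddm1nrpd1 was above 0 in every stretch, between 0.24 and 0.65. On chromosome 1 the stretch from AT1TE46330 to AT1TE48020 had 19 of 23 loci higher in ddm1nrpe1 and 0 lower, with a median of 0.62, whereas the first stretch, from AT1TE09080 to AT1TE42890, had 3 higher and 9 lower, with a median of -0.24. Of all tested loci of chromosome 1, 20.2% were higher and 15.6% lower. On chromosome 5 the middle stretches had medians of 0.35 to 0.49 and the outer ones of 0.00 to 0.09. In ddm1cmt2 against ddm1nrpd1, the first stretch of chromosome 2, from AT2TE00030 to AT2TE11890, had 2 of 26 loci higher and 14 lower, with a median of -0.60. Of all tested loci of chromosome 2, 23.8% were higher and 26.1% lower in this comparison. The stretches named were singled out after the values were seen, and shares over all loci of a stretch were not computed.

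**Figure D4:**
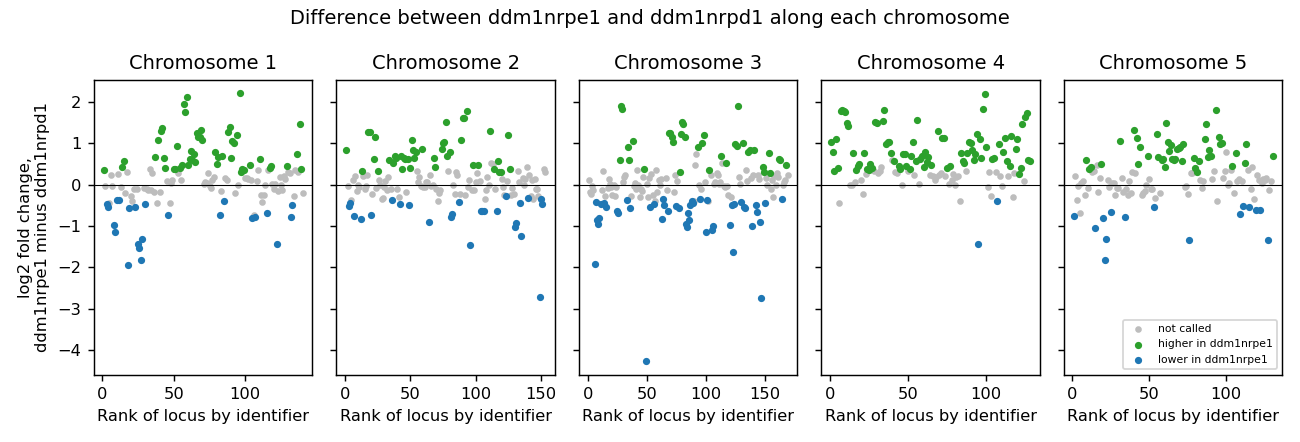
Difference between ddm1nrpe1 and ddm1nrpd1 for each of the 720 loci, on the log2 scale, against the rank of the locus by identifier on each chromosome. Green and blue points passed edgeR's test (adjusted p under 0.05); on chromosome 4, 83 points are green and 2 are blue.

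Many of the loci were close neighbours by identifier. When loci whose identifier numbers differed by at most 10 were joined, 99 runs held 224 of the loci and 496 stood alone. There were 79 runs of 2, 16 of 3, 2 of 4 and 2 of 5 loci. Within a run the log2 differences between ddm1nrpe1 and ddm1nrpd1 spanned a median of 0.19, and those of ddm1cmt2 against ddm1nrpd1 and ddm1nrpe1 spanned 0.41 and 0.36. Runs with any call numbered 65, 79 and 75 in these comparisons, and 2, 8 and 7 of them held calls in both directions. Neighbours may share a transcript or reads, so they are not independent loci.

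The longest runs show both outcomes. In the run from AT3TE59450 to AT3TE59490 all 5 loci were lowest in ddm1cmt2. AT3TE59450 stood at 25.4, 25.6 and 18.7 CPM there and between 36.4 and 51.0 CPM in the other 9 libraries, and AT3TE59490 stood at 6.76, 7.61 and 6.39 CPM in ddm1cmt2, below its other libraries, which reached 28.9 CPM in ddm1nrpd1. In the run from AT3TE54690 to AT3TE54710 the members disagreed: AT3TE54690 was lower in ddm1nrpe1 than in ddm1nrpd1 (log2 -0.64, adjusted p = 0.00062, edgeR's test) and AT3TE54710 was higher (1.03, adjusted p = 0.00011).

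In the run from AT1TE46755 to AT1TE46780, the last 3 of the 4 loci were low in ddm1nrpd1. AT1TE46765 stood at 8.05, 6.52 and 9.02 CPM in ddm1nrpd1, 47.4, 38.5 and 52.5 in ddm1, 18.8, 28.1 and 43.4 in ddm1nrpe1, and 33.0, 38.3 and 38.7 in ddm1cmt2. AT1TE46755 at the head of the run stood at 51.5, 50.9 and 53.8 CPM in ddm1nrpd1, within the 38.6 to 77.3 CPM of the others. In the run from AT2TE18435 to AT2TE18455 all 4 loci were lowest in ddm1nrpd1, AT2TE18455 at 27.9, 29.9 and 30.7 CPM against 37.8 to 98.9 CPM elsewhere.

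**Figure D5:**
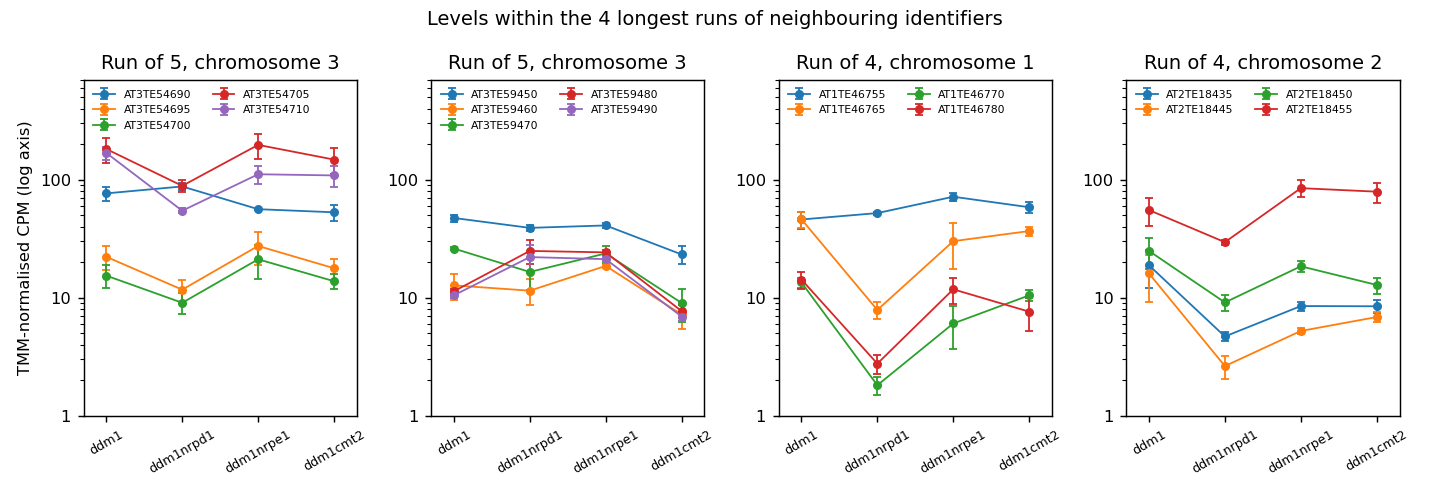
Mean level ± SD (n = 3) in each genotype for the loci of the 4 longest runs of neighbouring identifiers, in TMM-normalised CPM on a log axis. All loci of the second run are lowest in ddm1cmt2 and all loci of the fourth are lowest in ddm1nrpd1, while AT3TE54690 and AT1TE46755 depart from their neighbours.

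Part of the table appears to hold the same element under 2 identifiers. A locus with a gene identifier on the same chromosome was called a partner when its level lay within 0.2 of the transposon locus, on the log2 scale with 0.5 CPM added, in all 12 libraries. Of the 720 loci, 146 (20.3%) had a partner that RefSeq's table classes as a pseudogene, and 10 had a protein-coding one. The partners were 142 distinct pseudogenes and 13 distinct protein-coding loci, which are 6.77% of the 2097 tested pseudogenes and 0.0643% of the tested protein-coding loci. Identifier numbers of transposon loci and pseudogene partners ran in the same order along each chromosome, with Spearman's rho of 0.995 to 1 over 22 to 36 loci. With a tolerance of 0.1, 89 loci had a pseudogene partner and 1 a protein-coding one. Among themselves the transposon loci held 11 pairs within 0.1 in all libraries, covering 21 loci, of which 9 pairs lay within a run.

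AT4TE08465 and AT4TE08475 form such a pair and count as 1 result. AT4TE08475 stood at 51.3, 57.7 and 53.7 CPM in ddm1nrpd1, 130, 165 and 269 in ddm1nrpe1, 214, 302 and 343 in ddm1cmt2, and 233, 169 and 226 in ddm1, and AT4TE08465 was at nearly the same level in every library. The ddm1nrpd1 libraries lay below all others. The pair was among the 5 largest differences between ddm1cmt2 and ddm1nrpd1, at log2 values of 2.38 and 2.40.

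The partners name the element at 8 of the loci. AT2TE16940 and AT2TE16945 both matched SADHU1-1, AT1TE35415 matched SADHU1-2 and AT3TE63935 matched SADHU3-1, which belong to the Sadhu family of non-coding retrotransposons. SADHU1-1 stood, as AT2TE16940, at 143, 128 and 167 CPM in ddm1 and 131, 128 and 109 in ddm1cmt2, and at 280, 194 and 233 in ddm1nrpd1 and 239, 244 and 190 in ddm1nrpe1. The ddm1nrpd1 and ddm1nrpe1 libraries overlapped and lay above those of ddm1 and ddm1cmt2, and ddm1cmt2 was lower than ddm1nrpd1 by 0.94 ± 0.15 on the log2 scale (adjusted p = 6.4e-05, edgeR's test).

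SADHU3-1, as AT3TE63935, was lower in ddm1cmt2 than in the rest. It stood at 18.5, 17.9 and 15.2 CPM there and between 40.6 and 53.6 CPM in the other 9 libraries, a 2.85-fold difference from ddm1nrpe1 (adjusted p = 1e-07, edgeR's test). SADHU1-2, as AT1TE35415, ranged from 12.2 to 21.4 CPM over the 12 libraries, and its genotypes overlapped.

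The other 4 named loci matched MUSTANG genes, which derive from transposases and are kept as ordinary genes: AT3TE05245 matched MUG1, AT5TE19520 MUG4, AT3TE09220 MUG5 and AT3TE07330 MUG7. They varied little between genotypes. MUG1 stood between 21.4 and 27.7 CPM and MUG4 between 19.5 and 29.9 CPM over the 12 libraries, and neither passed edgeR's test between double mutants (adjusted p of 0.36 to 0.92 for MUG1 and 0.47 to 0.76 for MUG4). MUG5 stood at 12.7, 11.6 and 12.2 CPM in ddm1nrpe1 and 15.5, 16.5 and 16.2 in ddm1cmt2, a log2 difference of 0.40 ± 0.10 (adjusted p = 0.0035, edgeR's test), and MUG7 differed by 0.46 in the same direction (adjusted p = 0.0019).

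The 824 tested transposon loci at 1 to under 10 CPM in ddm1 had median log2 differences of -0.31 and -0.36 for ddm1cmt2 against ddm1nrpd1 and ddm1nrpe1, beside 0.02 and -0.10 for the 720. Whether these medians differ was not tested.

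Some genes of the silencing machinery also differed between the double mutants. Of 29 listed genes, 3 (10.3%) were higher and 8 (27.6%) lower in ddm1nrpe1 than in ddm1nrpd1, against 19.7% and 16.4% of all tested loci. In ddm1cmt2, 11 (37.9%) were higher and 3 (10.3%) lower than in ddm1nrpd1, against 26% and 24.5%, and 12 (41.4%) were higher and 3 (10.3%) lower than in ddm1nrpe1, against 26.9% and 28.2%. The list holds the 4 mutated genes, so these counts include them. Between ddm1nrpe1 and ddm1nrpd1, NRPE1 was called higher and NRPD1 and DDM1 lower. In ddm1cmt2, CMT2 and NRPE1 were called higher and NRPD1 lower than in ddm1nrpd1, and CMT2 higher and NRPE1 lower than in ddm1nrpe1. The 3 higher in ddm1nrpe1 than in ddm1nrpd1 became 1 without replicate 2 of either genotype, and the 11 higher in ddm1cmt2 became 7 without ddm1nrpd1 replicate 1. The 5-methylcytosine glycosylase gene ROS1, whose product removes DNA methylation, stood at 46.3, 38.6 and 41.2 CPM in ddm1 and 33.3, 43.7 and 31.1 in ddm1cmt2, and at 2.06, 2.48 and 3.37 in ddm1nrpd1 and 1.36, 2.48 and 2.96 in ddm1nrpe1. It was high in ddm1 and ddm1cmt2 and low in the other pair, with a log2 difference of 3.79 ± 0.22 between ddm1cmt2 and ddm1nrpd1 (adjusted p = 5.3e-09, edgeR's test).

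Of the other listed genes, CLSY1, a chromatin remodeller that recruits polymerase IV, was lower in ddm1nrpe1 (3.0 ± 0.57 CPM) than in ddm1nrpd1 (6.28 ± 0.50) and ddm1cmt2 (7.90 ± 1.75). SUVH6, a histone H3 methyltransferase, was higher in ddm1cmt2 (20.9 ± 0.59 CPM) than in ddm1nrpd1 (12 ± 0.60) and ddm1nrpe1 (10.9 ± 0.27). DCL3, the Dicer-like enzyme that cuts polymerase IV precursors, was lower in ddm1nrpe1 than in ddm1nrpd1 by 0.65 ± 0.17 on the log2 scale (adjusted p = 0.0066, edgeR's test). Whether these genes have a part in the levels of the transposon loci was not tested.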

How the data were processed

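PolyA RNA of 2-week-old seedlings was counted per locus in 12 libraries, 3 of each of 4 genotypes. The raw counts and library-size-scaled counts (CPM) were deposited by the authors, and each CPM equals the count divided by its column's total. Per the submitters' processing notes, Trimmomatic, TopHat, HTSeq and edgeR were among the tools and TAIR10 was the build; no source used here gives versions, the strand setting or the handling of reads with several matches. Every column of values was matched to a sample (0 were not).

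The 720 loci were chosen from deposited ddm1 CPM, and they and all lists were chosen with earlier results of these data known. Counts of all 25069 loci were fitted in R 4.3.3 with edgeR 4.0.16: filterByExpr left 24839 loci, libraries were scaled by TMM (trimmed mean of M values), and the robust quasi-likelihood test compared group means over the 12 libraries. "Called" means a Benjamini-Hochberg adjusted p under 0.05 over all tested loci. Levels are TMM-normalised CPM, means are given ± SD (n = 3), and log2 differences ± SE. On simulated counts for ddm1nrpe1 against ddm1nrpd1 with 24839 loci, 89.5% of loci changed 2-fold and 49.2% of loci changed 1.5-fold were recovered, and 3.09% of calls were unchanged loci. Only 200 loci were changed, all drawn from loci above a minimum expected count. In the real comparison 4896 loci were called higher and 4074 lower. The simulated rates therefore need not hold for loci with few counts or for the real share of changed loci. Alternatives used DESeq2 1.42.0 and limma 3.58.1 (voom), other scalings and filters, the libraries of the pair alone, other thresholds, a replicate block and each library left out.

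Loci named are the 8 highest in ddm1, the 5 highest and 5 lowest called and non-overlapping per pair of double mutants, the 3 highest and 3 lowest non-overlapping beside ddm1, the 3 nearest the threshold on each side, the longest runs and those with a partner that the RefSeq table names as a transposon. From the silencing list these are the 4 mutated genes and the 4 others with the smallest adjusted p. The chromosome view, the level classes and the pairs of near-identical loci were made after the values were seen. Whether replicates came from separate plants is not given, so the p-values reflect only how much these libraries vary, which may be technical. Samples of other assays were not used here.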

Additional observations from a re-analysis of the deposited data

How the results depend on the processing

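The 5 highest and 5 lowest called differences of each pair of double mutants kept their direction and stayed called in all 660 repeats. They were picked as the most extreme in these same libraries, so this outcome was close to fixed in advance. Asking for at least 2-fold as well left 11.8% of loci higher and 3.61% lower in ddm1nrpe1 than in ddm1nrpd1, 11.8% and 11.7% in ddm1cmt2 against ddm1nrpd1, and 5.28% and 13.9% in ddm1cmt2 against ddm1nrpe1. Upper-quartile scaling gave 15 silencing genes lower in ddm1nrpe1 than in ddm1 in place of 9, and DESeq2 gave 1 lower in ddm1cmt2 than in ddm1 in place of 2; the cause was not tested.

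With each library left out in turn, the percent of the 720 loci higher in ddm1nrpe1 than in ddm1nrpd1 ranged from 27.8% to 36.2% and the percent lower from 11.7% to 16.8%. The median for ddm1cmt2 against ddm1nrpd1 lay close to 0 and ranged from -0.03 to 0.09. On chromosome 4 the percent higher in ddm1nrpe1 ranged from 53.9% to 67.2% and the percent lower from 0.781% to 3.12%, the highest without ddm1nrpe1 replicate 3, and the median of ddm1cmt2 against ddm1nrpd1 ranged from 0.32, without ddm1cmt2 replicate 2, to 0.51. Counts of silencing genes ranged from 1 to 3 higher in ddm1nrpe1 than in ddm1nrpd1, 7 (without ddm1nrpd1 replicate 1) to 13 higher in ddm1cmt2 than in ddm1nrpd1, and, beside ddm1, 1 to 4 higher in each double mutant and 0 to 2 lower in ddm1cmt2.

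Same-numbered replicates were not tied by the labels, and their deviations correlated from -0.298 to 0.208 across genotypes, so the numbers were not taken to pair the libraries. With the replicate number as a block, 35.3% were higher and 15.4% lower in ddm1nrpe1 than in ddm1nrpd1, and no count of calls moved by over 1.5 times. In the simulated counts for ddm1nrpe1 against ddm1nrpd1, 1.5-fold differences were often missed, a rate that need not hold for the real counts. Loci under 1 CPM in a genotype rest on few reads. Near-identical loci and neighbours may share reads, so the number of separate elements may be below 720.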
